A study of Mus musculus with 40 samples.

Results

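The Hedgehog pathway genes described here are 9 genes, chosen by name: the ligands Ihh, Shh and Dhh, the receptor genes Ptch1 and Smo, the transcription factors Gli1, Gli2 and Gli3, and the ligand-binding inhibitor Hhip. They are 9 of the 48733 genes in the count table, and all 9 are also among the 21204 genes kept for testing. They were measured by bulk RNAseq of mouse rib tissue at baseline, which the study defines as before resection. After surgical removal of a piece of rib, the callus tissue was measured at 0, 2, 5 and 14dpr (days after resection). The study asked how skeletal maturity and age alter the repair of large rib defects.

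All groups were Wild Type in genotype and received no further treatment according to the labels, and the study states that its mice were female. The immature mice were 7 weeks old and the mature mice over 10 months old. Each of the 10 groups (2 ages, 5 stages) held 4 libraries, apart from mature 5dpr with 3, since 1 of the 40 samples, mature 5dpr replicate 2, was not analysed here. The tissue was a composite of bone, bone marrow and intercostal muscle. Summed skeletal muscle markers never fell below 16171 CPM (counts scaled to library size by TMM). Summed osteoblast markers never fell below 1647 CPM and summed erythroid markers never below 481 CPM. Among the osteoblast markers, Col1a1 had a lowest value of 1350 CPM, and the others had lowest values from 0.231 (Sp7) to 15.7 CPM (Ibsp). These sums thus do not show bone and marrow in every library. In such bulk tissue, fewer cells of a type and less RNA per cell cannot be told apart. Total counts ranged from 6057756 to 21537070 per library, with a median of 9087417.

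Hedgehog ligands are secreted proteins that bind Ptch1 on the receiving cell. Without ligand, Ptch1 holds the membrane protein Smo inactive; with ligand, Smo is released, and the Gli factors change from repressor to activator forms or accumulate. Gli1, Ptch1 and Hhip are themselves switched on by the pathway and are widely read as its output, and Ihh is the ligand that prehypertrophic chondrocytes make in growth plate and callus cartilage.

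One library stood apart and touches several of the genes. In mature 2dpr replicate 3, 14214 of the 21204 tested genes had a read, against 19068 to 20823 in the other 38 libraries. In that library 1507 genes were at 0 that every other library of its group held at 1 CPM or more, and in no other library were there more than 63. Its total count of 7884546 was within the range of the rest. Ihh, Shh, Dhh, Gli1 and Gli2 had no read in it, Hhip had 1, and Gli3 had its highest level of all libraries, 42.1 CPM. Results are therefore given with this library and, for the changes it affects most, also without it.

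The upstream sequences of 3 members are shown because Ihh is the ligand called higher at 14dpr and Gli2 and Hhip are genes that fell together between 0 and 2dpr. RefSeq promoters of the GRCm38.p6 build matched 7 of the 9 members, all but Shh and Gli1. Each line gives the 250 bases before the start of the gene, 5′ to 3′ on the strand of the gene. Capitals mark the 9 bases closest to the Gli consensus TGGGTGGTC, or to its reverse complement GACCACCCA. Where several windows were equally close, as in Gli2, the one nearest the start is marked.
Ihh (chr1:74951673-74951922, minus strand): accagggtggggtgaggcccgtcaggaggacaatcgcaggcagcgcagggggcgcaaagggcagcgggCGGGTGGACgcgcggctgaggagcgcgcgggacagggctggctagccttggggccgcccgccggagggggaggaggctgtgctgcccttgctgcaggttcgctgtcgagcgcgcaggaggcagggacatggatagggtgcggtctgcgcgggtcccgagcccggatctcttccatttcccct
Gli2 (chr1:119053620-119053869, minus strand): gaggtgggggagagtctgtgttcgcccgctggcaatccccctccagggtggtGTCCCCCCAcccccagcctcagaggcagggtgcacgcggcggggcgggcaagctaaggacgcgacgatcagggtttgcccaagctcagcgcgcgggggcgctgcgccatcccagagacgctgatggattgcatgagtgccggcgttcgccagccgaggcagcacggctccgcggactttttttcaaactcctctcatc
Hhip (chr8:80058009-80058258, minus strand): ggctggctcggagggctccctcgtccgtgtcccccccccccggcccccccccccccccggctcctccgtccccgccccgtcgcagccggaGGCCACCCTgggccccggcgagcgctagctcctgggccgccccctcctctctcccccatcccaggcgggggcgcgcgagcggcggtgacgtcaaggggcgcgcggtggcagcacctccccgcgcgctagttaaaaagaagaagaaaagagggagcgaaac
The capitals in each of these 3 sequences differ from the consensus at 2 bases. Of the 7 promoters, none held the 9 letters exactly or with 1 mismatch on either strand, in Ihh, Dhh, Smo, Gli2 and Hhip the closest window had 2 mismatches, and in Ptch1 and Gli3 it had 3. Among 32851 promoters of the same length, 0.225% held the motif exactly, 5.79% with at most 1 mismatch, 51.8% with at most 2 and 98.6% with at most 3. A window this close is thus common, and the letters describe the sequence without marking a binding site.

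Compared per kilobase of exon, the members spanned a wide range of levels. Smo was highest, at 9.31 ± 3.21 CPM per kilobase (SD over 39 libraries), followed by Gli3 at 2.39 ± 0.928 and Ptch1 at 2.07 ± 0.692. Gli2 at 0.928 ± 0.527, Gli1 at 0.874 ± 0.496 and Dhh at 0.736 ± 0.338 came next, and Hhip at 0.261 ± 0.19, Ihh at 0.175 ± 0.354 and Shh at 0.0486 ± 0.0798 CPM per kilobase were lowest. The gap between neighbours in this order exceeded the larger of their SDs between Smo and Gli3, Ptch1 and Gli2, and Dhh and Hhip, and not between the other neighbours. The order pools all stages and changed among them: in immature mice at 14dpr Ihh, at a mean of 0.957 CPM per kilobase, stood above Dhh (0.537) and Hhip (0.484), and at baseline Ptch1 (2.35) stood above Gli3 (1.72).

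**Figure D1:**
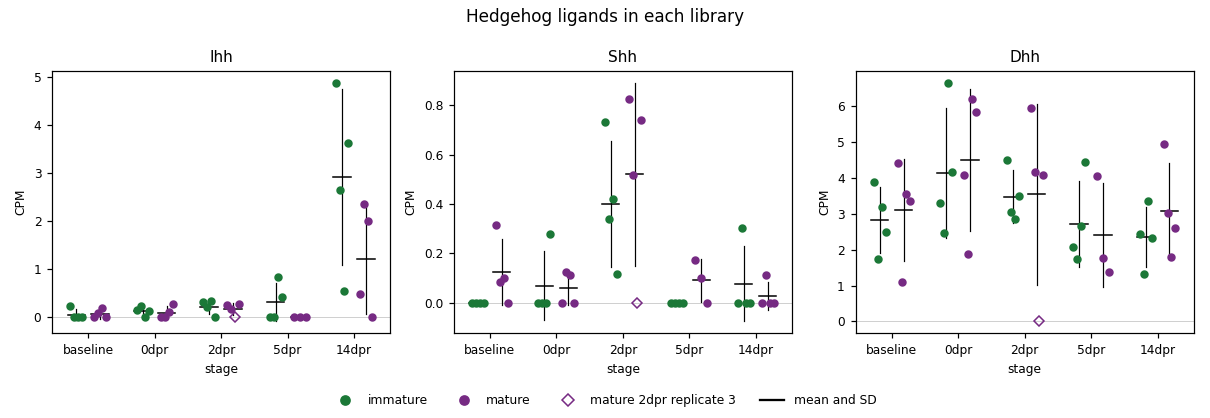
Levels of Ihh, Shh and Dhh (y axis, CPM) in every library by stage (x axis) and age, with the mean and SD of each group. Ihh was highest at 14dpr, where single libraries reached 4.87 CPM, Shh stayed under 0.83 CPM throughout with its highest levels at 2dpr, and Dhh was present at all stages.

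Of the ligands, Ihh and Shh were near 0 counts and Dhh was not. Ihh had 203 reads in all 39 libraries together, no read in 16 of them and at most 3 in 28. Shh, the ligand best known from limb and neural patterning, had 65 reads in all, no read in 22 libraries and at most 3 in 34. Dhh, which Schwann cells make in peripheral nerve, had 1283 reads, and its 1 library at 0 was mature 2dpr replicate 3.

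The reads of Ihh came mostly at 14dpr, with 148 of the 203. At baseline, 2 reads in all were found in immature and 3 in mature mice, and at 0dpr 4 and 3. At 2dpr the immature libraries held 3, 2, 4 and 0 reads and the mature ones 3, 2, 0 and 6. At 5dpr the immature libraries held 0, 0, 18 and 5 reads (0, 0, 0.84 and 0.434 CPM), while all 3 mature libraries held none. Thus, through 2dpr no library exceeded 6 reads, and at 5dpr the immature libraries split.

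At 14dpr, Ihh stood at 4.87, 2.64, 0.542 and 3.61 CPM in immature mice (40, 26, 5 and 34 reads). Mature libraries stood at 0.482, 2.35, 2.01 and 0 CPM (4, 21, 18 and 0 reads). All 4 immature libraries at 14dpr lay above every baseline library, whereas 1 mature library had no Ihh read at this stage, and the ages overlapped. Against baseline, Ihh rose at both ages: the pooled reads were 105 against 2 in immature mice, a ratio of 53.9 (95% counting interval 14.6 to 451), and 43 against 3 in mature mice, a ratio of 16.2 (5.19 to 81.7). Such counting intervals leave out the spread between libraries. The adjusted p of edgeR's quasi-likelihood test with Benjamini-Hochberg adjustment was 0.000518 and 0.00905.

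From 5 to 14dpr, Ihh rose in mature mice, from no read to 43, at least 18.1-fold higher when the group at 0 is set to a floor of 3 reads (edgeR adjusted p = 0.0119). In immature mice the reads were 105 against 23, a ratio of 5.88 (3.72 to 9.67), with an edgeR adjusted p of 0.0838, or of 0.0484 without mature 2dpr replicate 3. Leaving out mature 5dpr replicate 3 or replicate 4 ended the call in mature mice. Whether the gain differed between the ages was tested as an interaction and was not called.

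Shh had 48 of its 65 reads at 2dpr. The immature libraries at 2dpr held 7, 3, 5 and 1 reads (0.733, 0.338, 0.419 and 0.116 CPM), and the mature libraries 10, 6, 0 and 16 (0.826, 0.52, 0 and 0.74 CPM). At the other stages no library held more than 3 reads. The mature library without a read at 2dpr was replicate 3. In mature mice Shh rose from 0 to 2dpr, with 32 pooled reads against 2, a ratio of 9.03 (2.3 to 77.7) and an edgeR adjusted p of 0.0397, or 0.013 without that library. This call was lost when any of 6 other libraries was left out and under 6 alternatives given further on, the replicate block among them (adjusted p = 0.0536). In immature mice the reads were 16 against 2, a ratio of 6.77 (1.59 to 60.7), which did not pass (edgeR adjusted p = 0.0883). Shh then fell from 2 to 5dpr in immature mice, from 16 reads to none (edgeR adjusted p = 0.0234, and 0.0849 with the replicate block). That call was lost when immature 2dpr replicate 1 or immature 5dpr replicate 4 or 5 was left out. In mature mice the pooled reads of this step were 4 against 32, a ratio of 0.15 (0.0386 to 0.423). The mature step was not called, with an edgeR adjusted p of 0.0609 without mature 2dpr replicate 3. Genes on the opposite strand overlap exons of Shh, 9530036O11Rik and Gm26894 in the annotation, and whether the counting used strand is not given in the sources used here, so that these few reads may belong to either gene. The same holds for opposite-strand exons that overlap Gli1 (Arhgap9 and Gm47200), Gli3 (Gm6556) and Hhip (Gm27820).

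Dhh showed no called change in any of the comparisons. Its levels at 0dpr were 3.29, 2.47, 6.65 and 4.17 CPM in immature and 4.08, 1.87, 6.2 and 5.83 CPM in mature mice. At 14dpr they were 2.44, 1.32, 3.36 and 2.34 CPM in immature and 4.94, 3.02, 1.78 and 2.6 CPM in mature mice. At 5dpr they were 2.06, 1.75, 2.66 and 4.43 CPM in immature and 4.06, 1.78 and 1.37 CPM in mature mice. The libraries at 0, 5 and 14dpr overlapped between these stages and between the ages. From 2 to 5dpr the mature groups overlapped through replicate 3 at 2dpr alone, and without that library the log2 fold change was -0.99 ± 0.47 (edgeR adjusted p = 0.171). The summed Schwann cell markers had medians of 518 and 323 CPM at 0dpr and of 122 and 94.8 CPM at 5dpr in immature and mature mice, and Dhh had means of 4.14 and 4.5 CPM and of 2.73 and 2.4 CPM at these stages. At baseline the marker medians were 379 and 257 CPM and the Dhh means 2.83 and 3.1 CPM. At 2dpr they were 228 and 161 CPM and 3.47 and 3.54 CPM, with mature replicate 3 included. At 14dpr they were 202 and 125 CPM and 2.36 and 3.08 CPM. Whether Dhh followed these markers was not tested. Dhh shares exons with Rhebl1 on the same strand, so its reads are uncertain.

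**Figure D2:**
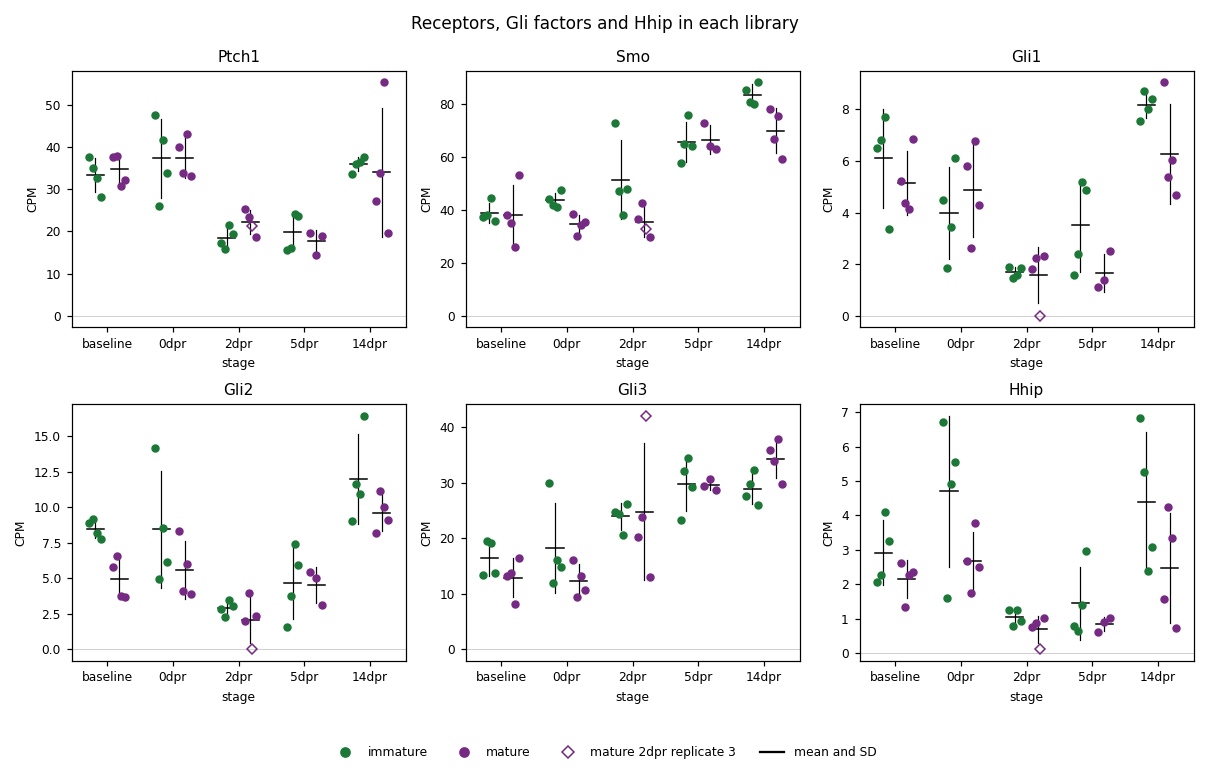
Levels of Ptch1, Smo, Gli1, Gli2, Gli3 and Hhip (y axes, CPM) in every library by stage (x axis) and age, with the mean and SD of each group; the open diamond is mature 2dpr replicate 3. Ptch1, Gli1, Gli2 and Hhip were lower at 2dpr than at 0dpr and higher again at 14dpr, whereas Smo and Gli3 were higher at 14dpr than at baseline.

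Ptch1, Gli1, Gli2 and Hhip fell between 0 and 2dpr at both ages. Ptch1, the ligand receptor and itself a target of the pathway, stood at 47.7, 26, 41.6 and 33.8 CPM at 0dpr and at 17.3, 15.9, 21.4 and 19.4 CPM at 2dpr in immature mice. The mature groups went from 40, 33.8, 43 and 33.1 CPM to 25.4, 23.5, 21.3 and 18.6 CPM. At both ages, every 2dpr library lay below every 0dpr library. The log2 fold change was -1.01 ± 0.21 (SE) in immature and -0.76 ± 0.21 in mature mice (edgeR adjusted p = 0.000147 and 0.00258).

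Gli1, the factor whose transcription depends most on the pathway, stood at 4.48, 1.85, 3.46 and 6.12 CPM at 0dpr and at 1.88, 1.46, 1.59 and 1.86 CPM at 2dpr in immature mice. Its mature levels stood at 5.8, 2.62, 6.76 and 4.31 CPM and then at 1.82, 2.25, 0 and 2.31 CPM. The immature groups overlapped at the lowest 0dpr library and the mature groups did not overlap. Gli1 fell by 1.21 ± 0.48 on the log2 scale in immature mice (edgeR adjusted p = 0.0394), a call lost when any of 6 of the 8 libraries was left out. In mature mice it fell by 1.56 ± 0.47 (edgeR adjusted p = 0.0064), and by 1.19 ± 0.38 without replicate 3, the library at 0.

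Gli2, the main activator of the family, stood at 14.2, 4.93, 8.56 and 6.12 CPM at 0dpr and at 2.83, 2.25, 3.43 and 3.02 CPM at 2dpr in immature mice. Mature levels stood at 8.31, 4.12, 5.98 and 3.89 CPM and then at 1.98, 3.98, 0 and 2.36 CPM. Gli2 fell by 1.54 ± 0.46 in immature and by 1.38 ± 0.47 in mature mice on the log2 scale (edgeR adjusted p = 0.00643 and 0.0139), and in mature mice by 1.01 ± 0.37 without replicate 3. The immature groups were apart, and in mature mice 1 library at 2dpr lay above the lowest at 0dpr.

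Hhip, which binds ligand at the cell surface and limits its reach, stood at 6.72, 1.6, 4.92 and 5.56 CPM at 0dpr and at 1.26, 0.788, 1.26 and 0.929 CPM at 2dpr in immature mice. In mature mice it stood at 2.67, 1.75, 3.77 and 2.5 CPM and then at 0.744, 0.866, 0.111 and 1.02 CPM. At both ages the stages did not overlap. Hhip fell by 2.13 ± 0.52 in immature and by 1.89 ± 0.53 in mature mice on the log2 scale (edgeR adjusted p = 0.000921 and 0.00309), and in mature mice by 1.59 ± 0.52 without replicate 3.

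These are 4 of 9 members at each age, where 22.2% of all tested genes in immature and 24.9% in mature mice were called lower. Upward, mature Gli3 and Shh were called, 2 of 9, where 22.7% of all genes were called higher. Gli3, mainly a repressor when the pathway is idle, stood at 16.2, 9.36, 13.2 and 10.7 CPM at 0dpr and at 20.2, 23.9, 42.1 and 13.1 CPM at 2dpr in mature mice, where the highest value is that of replicate 3. Its log2 fold change was 1.00 ± 0.26 with that library (edgeR adjusted p = 0.00157) and 0.62 ± 0.24 without it (adjusted p = 0.0285). Without the library the same number of members was called in each direction, 4 lower in immature mice and 4 lower and 2 higher in mature mice.

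**Figure D3:**
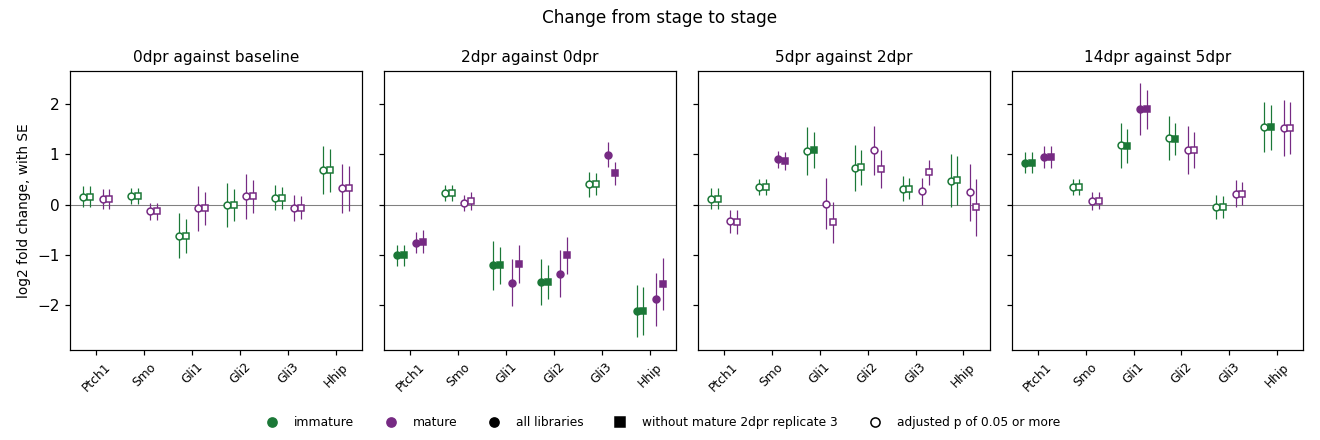
Log2 fold change with its SE (y axis) of 6 members in each step between stages, by age, with all libraries (circles) and without mature 2dpr replicate 3 (squares); filled symbols have an edgeR adjusted p under 0.05. In the step from 0 to 2dpr, Ptch1, Gli1, Gli2 and Hhip were lower at both ages with and without the library.

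The composition of the tissue moved at the same step. All 20 skeletal muscle markers fell from 0 to 2dpr at both ages, and their summed level went from 128500 to 236610 CPM (immature) and 132990 to 265260 CPM (mature) at 0dpr down to 19554 to 31880 CPM and 16171 to 31874 CPM at 2dpr. All 7 adipocyte markers fell at both ages as well, while 5 of 8 leukocyte markers rose. Counted without mature 2dpr replicate 3, 1 leukocyte marker fell at each age, and all 7 erythroid markers fell at both ages. In that count 8 (immature) and 4 (mature) of 8 Schwann cell markers fell, as did 3 and 6 of 9 osteoblast markers. No erythroid, Schwann cell or osteoblast marker rose. With a skeletal muscle score as a covariate, none of the 9 members was called in this step at either age, and 6.45% (immature) and 5.88% (mature) of all genes were. Gli1 then had a log2 fold change of -0.21 in immature and -0.32 in mature mice, and Gli2 one of -2.13 at both ages. No 0dpr library overlapped a 2dpr library in the summed level, so that stage and muscle content cannot be told apart.

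**Figure D4:**
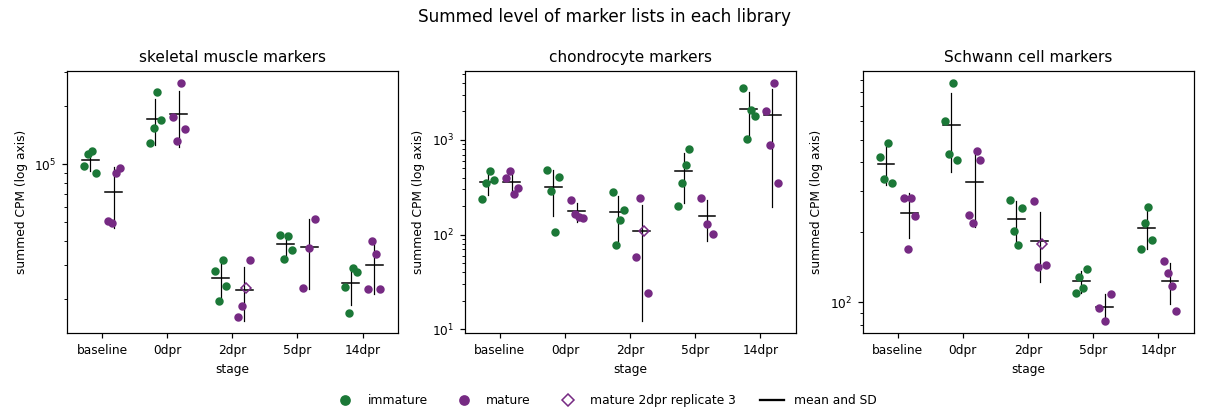
Summed level of the skeletal muscle, chondrocyte and Schwann cell marker lists (y axes, CPM, log scale) in every library by stage and age, with the mean and SD. Muscle markers were lower at 2dpr than at 0dpr, and chondrocyte markers were highest at 14dpr.

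Smo, the membrane protein that relays the signal, rose from baseline to 14dpr at both ages. It stood at 37.1, 38.1, 44.3 and 35.9 CPM at baseline and at 85.2, 80.6, 79.7 and 87.9 CPM at 14dpr in immature mice. The mature libraries went from 37.9, 34.9, 25.9 and 53.2 CPM to 78, 66.8, 75.3 and 59.2 CPM. The 2 stages did not overlap at either age, and the log2 fold change was 1.10 ± 0.16 in immature and 0.88 ± 0.16 in mature mice (edgeR adjusted p = 1.55e-06 and 4.51e-05). In mature mice Smo rose between 2 and 5dpr, from 36.6, 42.5, 32.8 and 29.7 CPM to 72.6, 63.9 and 62.8 CPM (log2 fold change 0.91 ± 0.17, edgeR adjusted p = 0.000277), as 1 of 9 members where 8.16% of all genes were called higher. In immature mice the same step had a log2 fold change of 0.35 ± 0.16 (edgeR adjusted p = 0.197), and the difference between the ages was not called.

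Gli3 likewise rose from baseline to 14dpr. It stood at 13.4, 19.5, 19.2 and 13.8 CPM and then at 27.5, 29.7, 32.3 and 25.9 CPM in immature mice (log2 fold change 0.81 ± 0.25, edgeR adjusted p = 0.0125). Mature libraries stood at 13.2, 13.7, 8.18 and 16.5 CPM and then at 35.9, 33.9, 37.9 and 29.7 CPM (1.41 ± 0.26, edgeR adjusted p = 3.74e-05). The stages did not overlap at either age. With the replicate block, the adjusted p in immature mice was 0.0627. Ihh, Smo and Gli3 were thus the 3 of 9 members called higher at 14dpr than at baseline at each age, where 16.4% (immature) and 17.1% (mature) of all genes were called higher. Without mature 2dpr replicate 3, Gli2 was called in mature mice as well (log2 fold change 0.96 ± 0.32, edgeR adjusted p = 0.0177), which made 4 of 9, where 19.4% of all genes were called higher. Between the same stages, all 20 skeletal muscle markers fell in immature and 17 in mature mice, and all 7 erythroid markers fell at both ages, while 8 of 9 periosteal and stromal, 7 of 8 endothelial and 11 of 13 tested chondrocyte markers rose at each age. Their part in the rise of Smo and Gli3 was not tested apart from the muscle score. With that score, Gli3 in immature mice was not called (log2 fold change 0.51, edgeR adjusted p = 0.554). Smo at both ages and Gli3 in mature mice kept their calls in all 10 alternatives, the muscle score among them.

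Between 5 and 14dpr, members of the response side rose again. Ptch1 went from 15.7, 16.2, 24.2 and 23.7 CPM to 33.6, 36, 36.5 and 37.7 CPM in immature mice (log2 fold change 0.84 ± 0.21, edgeR adjusted p = 0.0159). The mature groups went from 19.5, 14.4 and 18.9 CPM to 27.2, 33.7, 55.3 and 19.5 CPM (0.95 ± 0.23, edgeR adjusted p = 0.0106). The immature groups were apart, while in mature mice the lowest 14dpr library was about level with the highest at 5dpr. Gli1 rose in mature mice, from 1.12, 1.37 and 2.52 CPM to 9.04, 5.36, 6.02 and 4.67 CPM (1.90 ± 0.52, edgeR adjusted p = 0.0284). This call was lost when mature 14dpr replicate 1 or 3 or mature 5dpr replicate 1 or 3 was left out. In immature mice Gli1 stood at 1.59, 2.38, 5.18 and 4.86 CPM and then at 7.55, 8.72, 8.03 and 8.39 CPM, without overlap, with a log2 fold change of 1.18 ± 0.45 and an edgeR adjusted p of 0.168.

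Counted over the members, 1 of 9 was called higher in immature mice (1.73% of all genes) and 3 of 9 in mature mice (1.95%), Ihh, Ptch1 and Gli1. The immature count depended on the library that stood apart, although that library is in neither group: the SE of Gli1 in this step was 0.45 with it and 0.33 without it. Without it, 5 of 9 were called higher in immature mice (2.62% of all genes): Ihh, Ptch1, Gli1 (log2 fold change 1.17 ± 0.33, adjusted p = 0.0316), Gli2 (1.31 ± 0.32, adjusted p = 0.012) and Hhip (1.54 ± 0.45, adjusted p = 0.038). In mature mice the same 3 members were called without it. Of single libraries left out, mature 14dpr replicate 3 and mature 5dpr replicate 3 took the mature count to 1 and 0, and the immature count fell to 0 without immature 5dpr replicate 2 or replicate 3.

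Cartilage and bone markers moved with this step. Summed chondrocyte markers had medians of 443 (immature) and 130 CPM (mature) at 5dpr and of 1927 and 1458 CPM at 14dpr, and 3 of 13 tested markers rose in immature and 7 of 13 in mature mice. Of the hypertrophic chondrocyte markers, 4 of 5 rose at both ages, and of the osteoblast markers 4 of 9. The mature 14dpr library without an Ihh read, replicate 4, had the lowest summed chondrocyte level of its stage, 352 CPM, against 879 to 4027 CPM in the other 3. Their part in the result was not tested.

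The remaining steps gave few calls. Between baseline and 0dpr none of the 9 members was called at either age, where 10.6% of all genes in immature and 22.5% in mature mice were. Between 2 and 5dpr, Shh was the 1 member called in immature mice, downward, where 3.68% of all genes were called lower. Without mature 2dpr replicate 3, Gli1 was also called there, upward (log2 fold change 1.09 ± 0.36, edgeR adjusted p = 0.0434, with 5.97% of all genes called higher).

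Between immature and mature mice, none of the 9 members was called at any stage by edgeR's test. Of all genes, 0.585% were called at baseline, 0.726% at 0dpr, 0.627% at 2dpr, 0% at 5dpr and 0.00943% at 14dpr. The smallest adjusted p was that of Smo at 2dpr, where the immature libraries stood at 72.5, 46.9, 38 and 47.9 CPM and the mature ones at 36.6, 42.5, 32.8 and 29.7 CPM. The groups overlapped, and the log2 fold change was 0.54 ± 0.16 (unadjusted p = 0.00198, edgeR adjusted p = 0.115). Without mature 2dpr replicate 3 it was 0.50 ± 0.17 (unadjusted p = 0.00664, edgeR adjusted p = 0.255). The smallest edgeR adjusted p was then that of Gli3 at 0dpr, 0.237. At 5dpr Ihh had 23 pooled reads in immature and none in mature mice, with 18 of the 23 in immature replicate 4, the deepest library, and the other 5 in replicate 5 (edgeR adjusted p = 0.615). At 5dpr Gli1 had a log2 fold change of 1.10 ± 0.51 (unadjusted p = 0.0375, edgeR adjusted p = 0.953). Without mature 2dpr replicate 3, which is in neither group, it was 1.11 ± 0.38 (unadjusted p = 0.00601, edgeR adjusted p = 0.411). The edgeR adjusted p of Ihh at 5dpr was then 0.377. An interaction of age with each step was not called for any member, where 0.0141%, 0.0613%, 0% and 0% of all genes were called in the steps to 0, 2, 5 and 14dpr. None of these adjusted p-values shows that the ages are alike.

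From 0 to 2dpr, 4 of 6 co-receptors and ligand-binding proteins and 5 of 15 intracellular regulators fell at each age. Of all genes, 22.2% (immature) and 24.9% (mature) were called lower. Among genes of ligand release 1 of 5 fell at each age, which was no larger a share. Without mature 2dpr replicate 3, 2 regulators and 1 gene of ligand release rose at each age, where 24.7% and 24.5% of all genes did. The medians of the co-receptor list were -0.887 (immature) and -1.21 (mature) on the log2 scale, against -0.0401 and -0.0477 over all tested genes. In mature mice Gpc3, a proteoglycan that binds Hedgehog, fell by 1.81 ± 0.19 and the co-receptor Boc by 1.47 ± 0.25. Of the regulators, Evc, a ciliary partner of Smo, fell by 1.21 ± 0.17, Prkaca, the protein kinase A subunit that restrains Gli factors, by 1.12 ± 0.21, and Btrc, which directs their processing, by 1.07 ± 0.15 in mature mice. Scube2, which helps release ligand, fell by 1.47 ± 0.39 at this step in mature mice. Without mature 2dpr replicate 3 these log2 fold changes were -1.72 (Gpc3), -1.21 (Boc), -1.44 (Evc), -0.85 (Prkaca), -1.12 (Btrc) and -2.10 (Scube2), all still called.

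From baseline to 14dpr, 4 (immature) and 5 (mature) of the 5 genes of ligand release rose, as did 3 and 4 of the 6 co-receptors and 4 and 8 of the 15 regulators, where 16.4% and 17.1% of all genes did. Without mature 2dpr replicate 3 the counts were 5 and 5, 4 and 5, and 7 and 9, where 19% and 19.4% of all genes rose. Scube2 rose by 2.52 ± 0.36 on the log2 scale in mature and Scube3 by 2.21 ± 0.53 in immature mice, and the co-receptor Cdon by 1.59 ± 0.23 in mature mice. Scube1 rose by 2.37 ± 0.67 from 5 to 14dpr in mature mice. Among the regulators, the kinase gene Stk36 rose by 2.01 ± 0.52 and the ciliary receptor gene Gpr161 by 1.46 ± 0.22 from baseline to 14dpr in mature mice, and Kif7, a ciliary kinesin, by 1.40 ± 0.44 from 2 to 5dpr. Gas1, another co-receptor, and Gpc3 rose by 1.68 ± 0.25 and 1.46 ± 0.20 from 2 to 5dpr in mature mice. Without mature 2dpr replicate 3 the log2 fold changes from 2 to 5dpr were 1.02 (Kif7), 1.555 (Gas1) and 1.37 (Gpc3), all still called.

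Of the response genes, 11 of 12 were tested, and they moved in both directions. From 0 to 2dpr, 2 rose and 1 fell in immature and 2 rose and 3 fell in mature mice, where 4617 and 4707 (immature) and 4812 and 5288 (mature) of the 21204 tested genes rose and fell. Mycn, a proliferation factor, fell by 2.77 ± 0.71 in mature and Pthlh, the growth plate signal that acts opposite Ihh, by 1.36 ± 0.52 in immature mice, while the forkhead gene Foxf2 rose in immature mice, from 0.0964 to 0.689 CPM. From baseline to 14dpr 3 rose and 1 fell in immature and 4 rose and 2 fell in mature mice, and Foxf1, also a forkhead gene, rose in immature mice from 0.0571 to 1.14 CPM. Without mature 2dpr replicate 3, 4 rose and 1 fell in immature and 5 rose and 2 fell in mature mice. Osr2 rose by 2.63 ± 0.57 from 2 to 5dpr in mature mice. Without mature 2dpr replicate 3 this rise of Osr2 was 2.29, and Mycn had a log2 fold change of -2.465 from 0 to 2dpr in mature mice, both still called. Between the ages, 1 gene of the 4 lists was called: Gas1 at 2dpr, higher in immature mice by 0.95 ± 0.23, at 38.3 against 19.8 CPM (edgeR adjusted p = 0.0471). That call was lost without mature 2dpr replicate 3 (log2 fold change 0.82, adjusted p = 0.142).

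The genes whose levels ran most like Ihh over the 39 libraries were cartilage genes: Snorc (Pearson's r = 0.853), Col9a3 (0.84), Clec3a (0.792), Col9a2 (0.764) and Col2a1 (0.755), among 16147 genes with a mean of at least 1 CPM. They remained the top 5 without mature 2dpr replicate 3. For Gli1 the list was Plekhf1 (0.864), Gli2 (0.855), Dtx1 (0.85), Dixdc1 (0.846) and Ppfibp2 (0.845), but without that library it was Spns2 (0.863), Larp6 (0.802), Dtx1 (0.799), Alpl (0.797) and Pth1r (0.788). For Ptch1 it was Depp1 (0.824), Als2cl (0.822), Reln (0.821), Plxna2 (0.82) and Dock9 (0.816), of which 3 stayed among the top 5 without that library. These points share stage, tissue composition and library depth, and the correlations describe likeness of level.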

How the data were processed

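Bulk RNAseq libraries of rib tissue before resection and of rib callus after it were analysed from 39 of the 40 samples, mature 5dpr replicate 2 not being analysed here. The authors aligned the reads to GRCm38 and obtained gene counts with STAR 2.5.2a. Deposited were these raw counts for 48733 genes, unscaled, and for a kept subset of 21204, whose filter rule is not given in the sources used here. The deposited normalized signal of the authors equals the TMM-scaled CPM of edgeR (largest relative difference 5e-15) and was used for that check alone. The labels name a stranded kit and separate sequencing runs but assign no library to a run, so that run and group cannot be told apart.

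Tests were run in edgeR 4.0.16 (R 4.3.3). After TMM scaling of the kept genes, a quasi-likelihood model with a term for each of the 10 groups was fitted to all libraries, and p-values were adjusted by Benjamini-Hochberg across the 21204 genes, calling those under 0.05. In all, 19 comparisons were made: the ages at 5 stages, each stage against the one before it and 14dpr against baseline within each age, and 4 interactions of age with a step. Log2 CPM used a prior count of 2. Exon lengths come from the GRCm38 annotation, and promoters from RefSeq. For genes near 0, pooled reads of a group are compared with an exact conditional 95% interval, or with a floor of 3 reads over the group where it has none. Intervals and floors cover counting error only. The fit was tested on simulated data. A first version, with a spread between libraries wider than that of the data, missed its pass mark, and the spread was then taken from the real counts. Not all changed genes were recovered, and 2-fold changes in genes with few reads were recovered in neither version. Changes of that size in members with few reads may thus go uncalled.

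The 9 genes and all lists were chosen with earlier results of these data known. All 9 are named in every comparison where they bear on it. Of each pathway list, up to 3 genes per direction with the largest log2 fold change among those past the threshold are named, for the age comparisons together and for the stage comparisons together, and for likeness the 5 genes with the highest Pearson correlation. A gene that this rule names is not reported here. Marker lists covered the cell types of the tissue and their possible neighbours.

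Nothing in the labels says whether replicates are separate animals, so p-values measure the spread between these libraries. No pair of libraries in a group was a duplicate (mean squared difference at least 6.39 times the counting variance over 57 pairs). Same-numbered libraries were checked by the correlation of their deviations from the group means. All 4 pairs between the ages at 0dpr had 0.178 to 0.296, so the numbers may pair there, and in no other comparison did every pair exceed 0.1. The main test of age at 0dpr held no term for such pairs. Replicate number entered only as an alternative, a block over all groups. Alternatives were RLE scaling, DESeq2 1.42.0, other gene filters, a fit to the compared libraries alone, blocking on replicate number, adjustment for a skeletal muscle score, thresholds of 0.01 and 0.1, omission of each library, and, added after seeing the data, all fits without mature 2dpr replicate 3.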

Additional observations from a re-analysis of the deposited data

Results flagged for a closer look

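In 81 sets of 4 libraries (a gene in a group), 6 held 1 library whose log2 CPM lay farther from the others than Dixon's 95% limit allows. Chance flags about 1 in 20 sets of measured values, a rate that does not apply to sets with 3 libraries at 0 reads, where any read is flagged by construction. Of these, 2 belong to mature 2dpr replicate 3: Dhh at 0 CPM against 4.07 to 5.95 CPM in the other 3 libraries, and Gli1 at 0 CPM against 1.82 to 2.31 CPM. The other 4 are such sets, libraries with 1 to 3 reads of a ligand where the rest of the group had none: Ihh in immature baseline replicate 2 (2 reads, 0.228 CPM), Shh in immature 0dpr replicate 4 (2 reads, 0.278 CPM), Shh in immature 14dpr replicate 2 (3 reads, 0.304 CPM) and Shh in mature 14dpr replicate 2 (1 read, 0.112 CPM). No member had a step between stages that differed between the ages by the interaction test.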

How the results depend on the processing

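No value named for a member changed sign under any alternative. The counts of members called were 0 in all alternatives for the 5 comparisons of age, the 4 interactions and 0dpr against baseline at both ages. For 14dpr against baseline the 3 calls ranged from 2 to 4 in immature and from 3 to 4 in mature mice, where Gli3 (immature) lost and Gli2 (mature) gained a call in 3 alternatives each. From 0 to 2dpr, the 4 (immature) and 6 (mature) calls became 0 and 0 with the skeletal muscle score as a covariate, and the mature count became 2 with only the libraries compared; the cause was not tested. From 2 to 5dpr in immature mice the 1 call, Shh, became 0 at a threshold of 0.01, with the replicate block and with the muscle score. The count was also 0 with edgeR's own filter on the full table, which did not keep Shh, and under DESeq2, which gave Shh no adjusted p. Without mature 2dpr replicate 3 the count was 2. From 5 to 14dpr in immature mice the 1 call became 0 at 0.01, 4 at 0.1, 4 under DESeq2, 5 with only the libraries compared, 5 without mature 2dpr replicate 3 and 2 with the replicate block. In mature mice the 3 calls became 0 at 0.01. With single libraries left out, the counts ranged from 0 to 1 (2 to 5dpr, immature), 0 to 2 (5 to 14dpr, immature), 1 to 2 (2 to 5dpr, mature) and 0 to 3 (5 to 14dpr, mature). Shh from 0 to 2dpr in mature mice lost its call at 0.01, with all genes with a count, under DESeq2, with only the libraries compared, with the replicate block and with the muscle score. Of the blocked fits, those on Shh, Gli3 and Hhip given here and in the results changed a call, with Hhip called from 5 to 14dpr in immature mice (adjusted p = 0.0439). Permutation tests planned for members outside the filtered table were not needed, since all 9 are in it. At these depths a gene at 0 reads in a group of 4 may be present below the floor of 3 reads, and Ihh and Shh rest on 203 and 65 reads. Ranked by Spearman's instead of Pearson's correlation, the top 5 genes like Ihh, Gli1 and Ptch1 shared 3, 1 and 1 genes with those given.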
